A study of Mus musculus with 12 samples.

Results

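Translation initiation factor genes were followed from proerythroblasts to basophilic erythroblasts, the next stage of red cell development, in the spleens of mice whose diet held enough selenium or too little (the adequate and the deficient diet). The genes were taken by symbol: every array feature that names exactly 1 gene whose symbol is Eif followed by a number, leaving out the eIF2 kinases (Eif2ak1 to Eif2ak4) and pseudogenes. This gave 46 features for 45 genes, out of 72688 features and 30702 genes named on the array. Of the 45, 44 were bright enough to test, among 20128 genes tested in all. The gene left out was Eif2c5, with log2 values between 3.83 and 4.89, which the reference lists as a non-coding RNA with an Argonaute name as its synonym. A further 5 features, for Eif3j1, Eif4a2, Eif4a3, Eif4ebp3 and Eif5, each name another gene as well and do not meet the rule.

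All animals were male mice kept on their diet for 3 months and then given phenylhydrazine, which destroys red cells and drives emergency red cell production in the spleen. On day 3 after the drug, proerythroblasts and basophilic erythroblasts were isolated by flow sorting, and 5 ng of total RNA from each sample was amplified and hybridised to a whole-transcript Affymetrix array. There were 12 arrays, 3 for each of the 4 combinations of diet and stage. Every group received phenylhydrazine, so no group shows red cell formation without it. Strain and age are not given in the labels, nor whether replicates came from separate mice, so p-values measure only the spread between these samples, which may be technical. Values below are the deposited log2 values unless another processing is named. Levels of different features are set side by side only to sort them as bright or dim.

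Protein synthesis starts when eIF2 brings the initiator tRNA to the small ribosomal subunit, which eIF3, eIF1 and eIF1A hold ready, and when eIF4E, eIF4G and eIF4A bring it to the capped end of an mRNA. eIF2B recharges eIF2 with GTP after each round and is the step that the integrated stress response blocks, while the 4E-binding proteins hold eIF4E back. In erythroblasts this machinery supplies the globin chains, and the heme-regulated kinase HRI, encoded by Eif2ak1, slows it when heme is short.

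The basophilic arrays differed from the proerythroblast arrays in signal quality as well as in stage. The median of the control background features was 3.31 to 3.53 in proerythroblasts and 3.63 to 4.70 in basophilic erythroblasts, with replicate 2 of each diet highest at 4.19 and 4.70. The interquartile range of all values was narrower in the basophilic arrays (2.17 to 2.49 against 2.59 to 2.66). One array, replicate 3 of the deficient basophilic group, is called proerythroblast in its description and basophilic in its title and cell type. It was kept as basophilic, and its correlation over all features was 0.986 and 0.91 with the other deficient basophilic arrays and 0.962 to 0.969 with the deficient proerythroblast arrays. All 10 erythroblast markers tested had group means above the brightness threshold (5.30, the median of all values) in every group. So did all 5 B cell markers tested, and 9 to 12 of 12 neutrophil markers did by group. The threshold therefore does not set erythroblasts apart from other cells.

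Initiation factor genes were broadly lower in basophilic erythroblasts than in proerythroblasts. On the adequate diet 30 of the 44 genes fell (68.2%), 2 rose and 12 did not pass, with a median log2 change of -0.96. Over all 20128 genes the median was 0.12, and 54.2% passed the test, 25.6% lower and 28.7% higher. On the deficient diet 29 genes fell (65.9%), 1 rose and 14 did not pass, with a median of -0.87 against 0.08 for all genes, of which 56.0% passed, 24.9% lower and 31.1% higher. The test was limma over all 12 arrays with Benjamini-Hochberg adjustment over all genes and a threshold of 0.05. Since these are bulk samples, fewer cells of a type and less RNA per cell cannot be told apart.

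The arrays separated by stage for most of these genes. All 3 adequate basophilic arrays lay below all 3 adequate proerythroblast arrays for 34 of the 44 genes, against 32.6% of all genes, and above them for 2, against 41.4%. On the deficient diet the counts were 31 lower, against 29.6% of all genes, and 1 higher, against 36.9%. In both stage comparisons 27 genes fell, which is 90.0% of the adequate list and 93.1% of the deficient list. The overlap over all genes was not counted, so these shares cannot be set against it. The 2 comparisons share no array, but they share 1 estimate of the spread per gene. Same-numbered basophilic arrays of the 2 diets also deviated together (correlations of 0.54 to 0.78). By call alone, Eif2d, Eif3i and Eif4ebp2 fell on the adequate diet only and Eif1ad and Eif4h on the deficient diet only. No difference between the diets in these changes passed the test.

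Most initiation factor genes gave bright signals, and bright genes as a class were lower in basophilic erythroblasts. Among the 4132 genes with a mean log2 value between 8 and 11, a range chosen after the data were seen, 38.3% fell on the adequate diet (median -0.39) and 42.1% on the deficient diet (median -0.56). The 31 initiation factor genes in that range fell in 22 cases (71.0%, median -1.01) and 21 cases (67.7%, median -0.97). Leaving out the 2 basophilic replicate 2 arrays, another choice made after the data were seen, 34 fell on the adequate diet with a median of -0.80, against 29.3% of all genes, and 31 on the deficient diet with a median of -0.59, against 26.6%. Without the array of conflicting labels, 32 fell on the deficient diet, against 27.5% of all genes. The part of the background difference in the stage change was not tested.

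**Figure D1:**
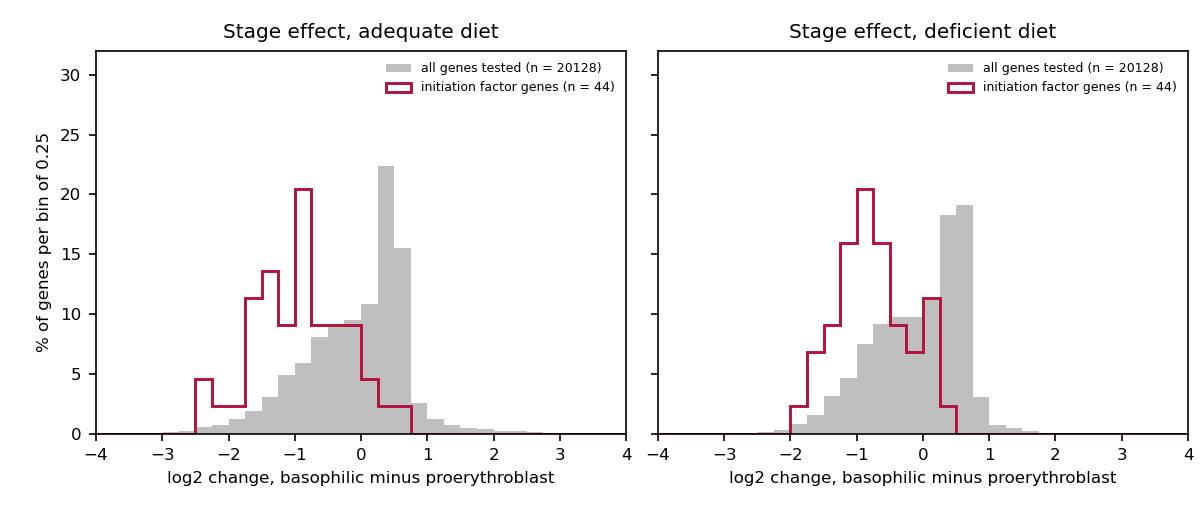
Distribution of the stage change, basophilic minus proerythroblast on the log2 scale, as percent of genes in bins of 0.25, for all 20128 genes tested (grey) and the 44 initiation factor genes (red outline), on the adequate diet (left) and the deficient diet (right). The initiation factor genes centre at -0.96 and -0.87, and all genes at 0.12 and 0.08.

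All 5 genes of eIF2B, the exchange factor that recharges eIF2, fell on each diet, with median log2 changes of -1.79 on the adequate and -1.21 on the deficient diet. Where pairs of changes are given from here on, the adequate diet comes first. Of all genes, 25.6% and 24.9% fell with stage, and each count by role is to be set against these shares. Eif2b1, its alpha subunit, read 9.64, 9.59 and 9.51 in adequate proerythroblasts and 7.46, 6.72 and 7.54 in adequate basophilic erythroblasts. In deficient mice it read 9.46, 9.15 and 9.04 at the first stage and 7.87, 7.05 and 7.76 at the second. The stages did not overlap on either diet, and replicate 2 was the lowest basophilic array on both. Eif2b1 fell, with log2 changes of -2.34 (SE 0.25, 5.06-fold, limma adjusted p = 2.83e-05) and -1.66 (SE 0.25, 3.15-fold, limma adjusted p = 0.00101).

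Eif2b3, the gamma subunit of the catalytic part, read 8.93, 8.86 and 8.61 in adequate proerythroblasts against 7.08, 6.26 and 6.70 in adequate basophilic erythroblasts. In deficient mice it read 8.79, 8.17 and 8.58 against 6.89, 6.21 and 6.67. The basophilic arrays were the low ones throughout, and Eif2b3 fell, with log2 changes of -2.12 (SE 0.24, limma adjusted p = 4.37e-05) and -1.92 (SE 0.24, limma adjusted p = 0.000373). Eif2b5, the catalytic epsilon subunit, read 9.30, 8.97 and 9.04 against 7.47, 7.01 and 7.46 on the adequate diet. Its deficient arrays read 8.85, 8.38 and 8.63 against 7.71, 6.87 and 7.70. Again no basophilic array reached a proerythroblast array, and Eif2b5 fell, with log2 changes of -1.79 (SE 0.23, limma adjusted p = 0.000119) and -1.19 (SE 0.23, limma adjusted p = 0.00396). The remaining subunit genes, Eif2b2 and Eif2b4, also fell: Eif2b2 showed -1.44 and -1.21, and Eif2b4 showed -0.98 and -0.69.

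eIF2 itself was mixed. Eif2s2, its beta subunit, stayed between 9.36 and 9.82 in all 12 arrays, and its stage change did not pass on either diet (-0.02 and -0.23, SE 0.12). Eif2s3x, the X-linked gamma subunit gene, fell (-1.32 and -1.08), while Eif2s3y, its near-identical Y-linked copy, showed -0.22 and -0.37 and did not pass. Whether these features separate the 2 copies was not tested. Eif2s1, the alpha subunit that the stress kinases phosphorylate, was not analysed here.

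Among the stand-ins for eIF2, proteins that can carry initiator tRNA by another route, Eif2a was clearest. It read 8.11, 7.87 and 7.84 in adequate proerythroblasts and 6.80, 6.22 and 6.57 in adequate basophilic erythroblasts. The deficient arrays read 7.93, 7.48 and 7.55 and then 7.09, 6.06 and 6.89. The stages were separate on both diets, and Eif2a fell, with log2 changes of -1.41 (SE 0.25, limma adjusted p = 0.00109) and -0.97 (SE 0.25, limma adjusted p = 0.0124). Eif2d fell by 1.01 on the adequate diet and showed -0.63 on the deficient diet, where it did not pass (limma adjusted p = 0.111).

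Scanning factors position the small subunit at the start codon. Of the 5 genes grouped under scanning, 3 fell on the adequate diet and 4 on the deficient diet, against 25.6% and 24.9% of all genes. The group also holds Eif5b, which acts when the ribosomal subunits join, and Eif1ad, placed here for its eIF1A-like domain. Eif1a, an eIF1A gene, had the smallest adjusted p of all initiation factor genes on both diets. Its values were 8.65, 8.59 and 8.53 in adequate proerythroblasts and 6.34, 6.28 and 6.21 in adequate basophilic erythroblasts. In deficient mice they were 8.35, 8.06 and 8.15 and then 6.89, 6.45 and 6.85. The 4 groups did not overlap: the deficient arrays lay between the adequate ones at both stages. Eif1a fell, with log2 changes of -2.31 (SE 0.14, 4.97-fold, limma adjusted p = 1.1e-06) and -1.46 (SE 0.14, 2.74-fold, limma adjusted p = 0.000139).

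Eif1ax, the X-linked eIF1A gene, fell (-1.10 and -1.02). It is a near-identical relative of Eif1a, and whether the features separate the pair was not tested. Eif1b, a close relative of the eIF1 gene, fell (-0.89 and -0.81). Eif1ad, whose product carries an eIF1A-like domain, showed -0.71 on the adequate diet without passing (limma adjusted p = 0.0537) and fell by 0.97 on the deficient diet. Eif5b, the GTPase that joins the 2 ribosomal subunits, showed -1.0 and -0.43 and passed on neither diet. Its adequate arrays still separated by stage (9.61, 9.48 and 9.48 and then 8.64, 8.20 and 8.73). The shared estimate of its spread includes deficient basophilic replicate 2, at 7.77 against 9.52 and 9.84 in the other arrays of that group.

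The eIF3 scaffold divided into a larger part that fell and a few genes that did not pass. On the adequate diet 9 of 12 fell, against 25.6% of all genes, with a median of -1.12. On the deficient diet 8 of 12 fell, against 24.9%, with a median of -1.06. Eif3f, a subunit with an MPN domain, read 9.34, 9.24 and 9.20 and then 8.44, 7.90 and 8.25 on the adequate diet. It read 9.23, 8.85 and 8.99 and then 8.12, 7.36 and 8.14 on the deficient diet. No arrays overlapped between stages, and Eif3f fell, with log2 changes of -1.06 (SE 0.21, limma adjusted p = 0.00243) and -1.15 (SE 0.21, limma adjusted p = 0.00311).

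The largest eIF3 changes on the adequate diet were in Eif3l (fell by 1.72), Eif3b (fell by 1.67), Eif3d (fell by 1.57) and Eif3e (fell by 1.54). On the deficient diet they were in Eif3e (fell by 1.60), Eif3b (fell by 1.55), Eif3a (fell by 1.49) and Eif3l (fell by 1.26). These sizes lean on deficient basophilic replicate 2, which read 6.76, 7.77, 7.52 and 7.16 in that order. Replicate 1 read 8.56, 9.44, 9.26 and 8.85, and replicate 3 read 8.59, 9.56, 9.27 and 8.87. Without replicate 2 Eif3l showed -0.70 and did not pass (limma adjusted p = 0.0899). Eif3m fell (-1.17 and -0.98), Eif3h fell by 0.86 on each diet, and Eif3a fell by 1.44 on the adequate diet. Eif3i fell by 0.94 on the adequate diet and showed -0.42 on the deficient diet, where it did not pass. Eif3d has a second, dim feature with a mean of 5.41. Tested by itself, it showed -0.15 on the adequate diet without passing (limma adjusted p = 0.451). On the deficient diet it fell by 0.48 (limma adjusted p = 0.031).

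Of the 12, Eif3c, Eif3j2 and Eif3k passed on neither diet. Eif3c, a core subunit, lay between 9.68 and 10.60 in all arrays, with stage changes of -0.13 and 0.06. Eif3k, a peripheral subunit, lay between 10.41 and 10.97, with changes of -0.27 and 0.02. Eif3j2, which encodes the loosely bound j subunit, lay between 9.72 and 10.17, with changes of 0.06 and 0.12. Eif3j2 has a near-identical copy, Eif3j1, and a further feature names both and was left out.

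Genes of the eIF4A helicases and their helpers fell in 3 of 5 cases on the adequate diet and 4 of 5 on the deficient diet. The shares of all genes were 25.6% and 24.9%. Eif4b, which stimulates the eIF4A helicase, read 10.82, 10.53 and 10.71 and then 9.29, 8.76 and 9.19 on the adequate diet. On the deficient diet it read 10.23, 9.95 and 10.19 and then 9.0, 8.04 and 9.11. The stages were separate, and Eif4b fell, with log2 changes of -1.61 (SE 0.25, limma adjusted p = 0.000462) and -1.41 (SE 0.25, limma adjusted p = 0.00259). The helicase gene Eif4a1 fell (-1.30 and -1.0). Eif4h, another helper, showed -0.95 without passing and then fell by 1.15, a call that 13 of 23 alternative settings ended. The features of Eif4a3l1 and Eif4a3l2, near-identical relatives of the exon junction helicase gene Eif4a3, differed: Eif4a3l2 fell (-0.66 and -0.52), and Eif4a3l1 did not pass.

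The 2 eIF4G scaffold genes measured, Eif4g2 and Eif4g3, fell on both diets, and Eif4g1, which encodes the main scaffold, was not analysed here. Eif4g3 read 8.06, 8.06 and 8.10 and then 7.24, 6.97 and 7.06 on the adequate diet. In deficient mice it read 8.10, 7.86 and 7.96 and then 7.50, 6.91 and 7.40. The arrays of the stages did not overlap, and Eif4g3 fell, with log2 changes of -0.98 (SE 0.16, limma adjusted p = 0.000548) and -0.70 (SE 0.16, limma adjusted p = 0.00767). Eif4g2, a scaffold that lacks the eIF4E site, read 10.52, 10.63 and 10.44 and then 9.89, 9.77 and 9.78, against 10.75, 11.00 and 10.73 and then 10.07, 9.47 and 10.19 on the deficient diet. It too separated by stage, and fell, with log2 changes of -0.72 (SE 0.18, limma adjusted p = 0.00763) and -0.92 (SE 0.18, limma adjusted p = 0.00362).

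Eif4e, the cap-binding protein gene, was lower on both diets. It read 9.76, 9.84 and 9.59 and then 9.21, 9.37 and 8.97 on the adequate diet. It read 9.88, 9.63 and 9.67 and then 9.13, 8.53 and 9.29 on the deficient diet. Every basophilic array was below every proerythroblast array of its diet, and Eif4e fell, with log2 changes of -0.55 (SE 0.19, limma adjusted p = 0.0328) and -0.74 (SE 0.19, limma adjusted p = 0.0124). Eif4e2, a relative that binds caps and represses translation, fell (-0.84 and -0.52).

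On the adequate diet 2 genes rose with stage, Eif4e1b and Eif5a2, and on the deficient diet only Eif4e1b did. Eif4e1b, known as an oocyte form of eIF4E, read 5.58, 5.62 and 5.72 and then 6.02, 6.16 and 6.09 on the adequate diet. It read 5.59, 5.70 and 5.67 and then 6.03, 6.41 and 5.96 on the deficient diet. The basophilic arrays were the high ones on both, and Eif4e1b rose by 0.45 and 0.48 (SE 0.13, limma adjusted p = 0.0182 and 0.0156). Eif5a2, the second eIF5A gene, read 6.56, 6.51 and 6.50 and then 6.93, 7.0 and 7.23 on the adequate diet, and rose by 0.53 there (SE 0.15, limma adjusted p = 0.015). Its deficient arrays overlapped between stages (0.08). On the adequate diet neither passed with each array centred on its median (0.24 and 0.32, limma adjusted p = 0.0624 and 0.147), and with quantile normalization Eif4e1b did not pass (0.30, limma adjusted p = 0.0772) while Eif5a2 did (0.61, limma adjusted p = 0.00771). Eif4e3, also dim, passed on neither diet.

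Of the 3 genes that restrain or move eIF4E, only Eif4ebp2 passed, and only on the adequate diet. Eif4ebp1, the main 4E-binding protein gene, read 9.89, 9.67 and 9.44 and then 9.35, 9.46 and 9.39 on the adequate diet. It read 9.30, 9.38 and 9.14 and then 8.74, 9.78 and 8.63 on the deficient diet. The stages overlapped on both diets, and the changes of -0.27 (SE 0.25, limma adjusted p = 0.373) and -0.22 (SE 0.25, limma adjusted p = 0.452) did not pass. Deficient basophilic replicate 2 was the highest of its group by a wide margin. Eif4ebp2 fell by 0.50 on the adequate diet and showed -0.14 on the deficient diet, and Eif4enif1, which carries eIF4E into the nucleus, passed on neither.

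Eif5a, whose hypusine-bearing product helps ribosomes over difficult stretches, read 10.75, 10.98 and 10.74 and then 10.16, 9.69 and 10.09 on the adequate diet. It read 10.82, 10.82 and 10.71 and then 10.28, 9.83 and 10.20 on the deficient diet. The stages did not overlap, and Eif5a fell, with log2 changes of -0.84 (SE 0.16, limma adjusted p = 0.00179) and -0.68 (SE 0.16, limma adjusted p = 0.00957). Eif6, which keeps the large subunit from joining too early and acts in its assembly, read 9.72, 9.66 and 9.73 and then 8.58, 7.89 and 8.49 on the adequate diet. Its deficient values were 9.51, 9.25 and 9.42 and then 8.67, 8.19 and 8.70. Eif6 was separate by stage on both diets and fell, with log2 changes of -1.38 (SE 0.19, limma adjusted p = 0.0002) and -0.87 (SE 0.19, limma adjusted p = 0.00724).

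**Figure D2:**
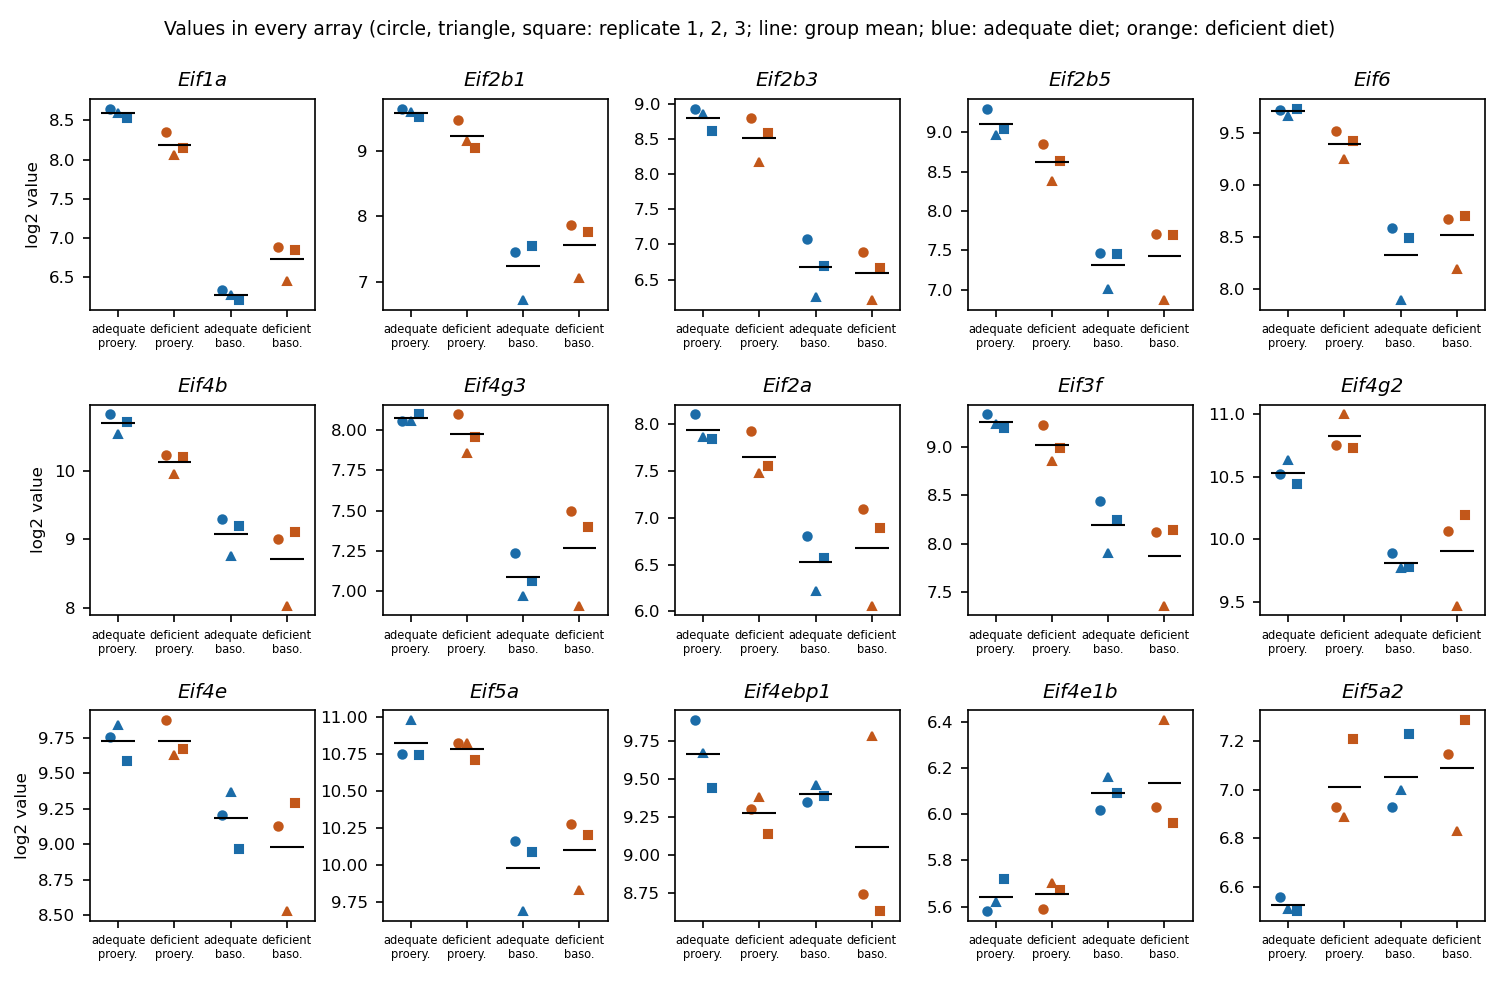
Log2 value of 15 initiation factor genes in each of the 12 arrays, by diet and stage, with the scale set for each gene; symbols mark the replicate number and horizontal lines the group mean. The basophilic arrays lie below the proerythroblast arrays for Eif1a, the eIF2B genes, Eif6 and Eif4b, overlap them for Eif4ebp1, and lie above them for Eif4e1b.

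**Figure D3:**
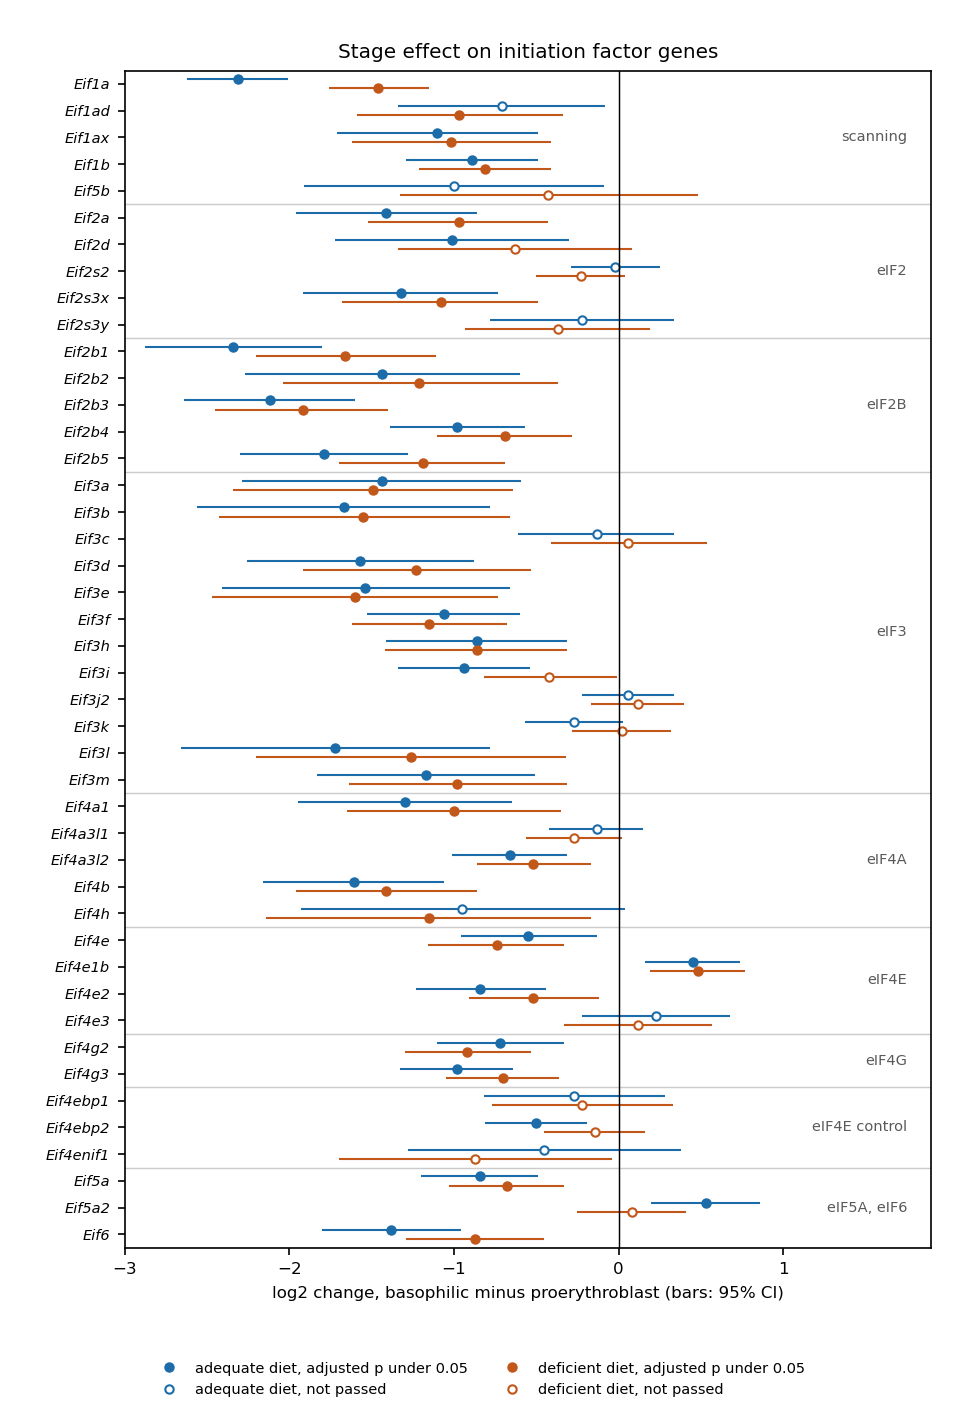
Stage change, basophilic minus proerythroblast on the log2 scale, for the 44 initiation factor genes by role, with 95% confidence intervals, on the adequate (blue) and deficient (orange) diet. Filled points passed an adjusted p of 0.05; 30 and 29 lie below 0, and open points mark genes such as Eif2s2, Eif3c and Eif3k that did not pass.

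Leaving out 1 array ended 8 of the 32 stage calls on the adequate diet and 9 of the 30 on the deficient diet in at least 1 case. The same count over all genes was not made. On the adequate diet Eif2b2, Eif2d, Eif3a, Eif3h, Eif4e1b and Eif4ebp2 missed the threshold without adequate basophilic replicate 2 (limma adjusted p between 0.0523 and 0.105). Eif2d and Eif4e1b also missed it without adequate proerythroblast replicate 1 or 2, Eif3h without replicate 1 and Eif4ebp2 without replicate 2 of that group. Eif5a2 missed it without adequate basophilic replicate 3, and Eif4e without adequate basophilic replicate 1 or 3 or adequate proerythroblast replicate 1 or 2 (limma adjusted p up to 0.108).

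For the deficient diet, Eif1ad, Eif2b2, Eif3h, Eif3l, Eif3m, Eif4a1, Eif4a3l2, Eif4e2 and Eif4h each missed the threshold without deficient proerythroblast replicate 1 and without replicate 3 of that group. Of these, Eif2b2, Eif4e2 and Eif4h also missed it without replicate 2 of that group, and Eif1ad, Eif3l, Eif3m, Eif4e2 and Eif4h without deficient basophilic replicate 2. Eif4h, the least steady, missed it without any of 5 adequate arrays too (all but basophilic replicate 2), and its limma adjusted p reached 0.163. With the 6 deficient arrays fitted alone, 12 of the 44 genes passed, all of them lower, against 11.1% of all genes lower and 14.5% in either direction. The eIF2B genes Eif2b1, Eif2b3 and Eif2b5, and Eif1a, Eif4b and Eif6, lost no call in any of these fits.

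The E-box that Myc and related factors can bind was searched for in the promoters. Myc, a regulator of growth genes, fell with stage (-1.85 and -1.08, limma adjusted p = 6.93e-05 and 0.00533), and its part in the initiation factor changes was not tested. The motif was the 6 letters CACGTG, which read the same on both strands, and no other motif was searched. RefSeq windows of 300 bases around the start site (GRCm38.p6) were matched for 33 of the 45 genes, and 9 hold the motif (27.3%), against 10.6% of the 12510 tested genes with a window and 8.09% of all 27025 windows' genes. It was in 6 of 22 genes that fell with stage on the adequate diet (27.3%) and in 3 of 10 tested genes that did not (30.0%). A match is only a match of letters, and binding was not measured. The genes were Eif1b, Eif3a, Eif3f, Eif3k, Eif4a1, Eif4e, Eif4h, Eif5a and Eif5a2.

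The sequences upstream of 5 start sites are shown because they hold the motif, in capitals, in genes that fell on both diets (Eif4e, Eif1b and Eif3f), on the deficient diet (Eif4h) or on neither (Eif3k). They are written 5′ to 3′ on the gene's strand from RefSeq GRCm38.p6. Eif4e is chr3:138527018-138527267 on the plus strand, Eif4h chr5:134639410-134639509 on the minus strand, Eif1b chr9:120492506-120492605 on the plus strand, Eif3f chr7:108934315-108934414 on the plus strand and Eif3k chr7:28981889-28981988 on the minus strand. Each ends at the base before the start site, and Eif4e carries the motif at 2 places.
Eif4e: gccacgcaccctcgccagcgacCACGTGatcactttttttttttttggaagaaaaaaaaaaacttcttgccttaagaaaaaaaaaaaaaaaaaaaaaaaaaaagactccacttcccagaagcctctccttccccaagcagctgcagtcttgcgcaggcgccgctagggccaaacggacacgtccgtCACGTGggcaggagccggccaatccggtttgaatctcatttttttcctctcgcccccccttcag
Eif4h: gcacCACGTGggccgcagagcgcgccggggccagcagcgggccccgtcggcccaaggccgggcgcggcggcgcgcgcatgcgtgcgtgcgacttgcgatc
Eif1b: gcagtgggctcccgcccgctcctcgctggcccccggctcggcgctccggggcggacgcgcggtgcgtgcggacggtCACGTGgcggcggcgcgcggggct
Eif3f: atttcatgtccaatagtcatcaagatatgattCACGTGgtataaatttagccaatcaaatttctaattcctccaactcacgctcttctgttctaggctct
Eif3k: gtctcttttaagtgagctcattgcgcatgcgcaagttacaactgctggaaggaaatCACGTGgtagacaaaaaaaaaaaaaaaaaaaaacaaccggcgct

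No initiation factor gene passed the test for diet at either stage in the main fit, which had no block for replicate number. With such a block within each stage, 6 passed in proerythroblasts, as given below. In proerythroblasts 0 of 44 passed in limma, against 4.02% of all genes, and 6 had an unadjusted p under 0.05, against 14.0% of all genes. The median deficient-minus-adequate change was -0.12, against 0.02 for all genes, and 31 of the 44 were below 0. The median was -0.06 without deficient proerythroblast replicate 2 and -0.18 without deficient proerythroblast replicate 1 or adequate proerythroblast replicate 3. For 39 of the 44 the 95% confidence interval lay within 1 log2 unit of 0. In 11 genes all deficient arrays lay below all adequate arrays, against 15.6% of all genes, and in 4 above, against 15.5%.

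The smallest adjusted p in proerythroblasts was that of Eif4ebp2, which encodes a 4E-binding protein. It read 9.70, 9.81 and 9.56 on the adequate diet and 9.30, 9.16 and 9.15 on the deficient diet, with no overlap and a change of -0.49 (SE 0.14, limma adjusted p = 0.0831). Eif1b read 8.48, 8.20 and 8.23 against 8.06, 7.36 and 7.70, also without overlap, a change of -0.60 (SE 0.18, limma adjusted p = 0.106). Eif5a2 went the other way, with 6.56, 6.51 and 6.50 against 6.93, 6.89 and 7.21 (0.49, SE 0.15, limma adjusted p = 0.108). Changes of -0.56, -0.52, -0.48 and -0.40 in Eif4b, Eif2b4, Eif2b5 and Eif1a also separated the arrays by diet without passing. Eif4e (-0.00), Eif5a (-0.04), Eif6 (-0.31) and Eif4ebp1 (-0.39) did not pass.

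Same-numbered arrays of the 2 diets deviated together within each stage, with correlations of 0.18 to 0.52 in proerythroblasts and 0.54 to 0.78 in basophilic erythroblasts. In basophilic erythroblasts replicates 1 and 3 of one diet also correlated with replicates 3 and 1 of the other (0.60 and 0.51), so there the pattern was largely that of replicate 2 against the other arrays. Differently numbered proerythroblast arrays correlated at -0.40 to 0.08. When the replicate number was a block within each stage, a fit chosen after the data were seen, 6 genes passed in proerythroblasts, against 11.1% of all genes. Eif1b, Eif4b, Eif4ebp2, Eif2b4 and Eif2b5 fell (limma adjusted p = 0.0105, 0.0242, 0.0165, 0.0225 and 0.0272) and Eif5a2 rose (limma adjusted p = 0.0325), with the changes given above. With the replicate block across both stages, only Eif1b passed (limma adjusted p = 0.0436), against 5.47% of all genes. Without the 2 basophilic replicate 2 arrays, whose spread enters the shared error, 10 genes passed, against 16.3% of all genes.

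In basophilic erythroblasts 0 of 44 passed in limma, against 0.0199% of all genes. An unadjusted p under 0.05 was seen for 2, against 6.48% of all genes, and the median change was 0.06 against 0.04 for all genes. The 2 were Eif1a (0.45, SE 0.14, limma adjusted p = 0.438), whose deficient arrays were all higher, and Eif1b (-0.51, SE 0.18, limma adjusted p = 0.562), whose deficient arrays were all lower. The 95% confidence interval lay within 1 log2 unit of 0 for 37 genes. The sign of the median depended on single arrays: it was -0.11 without adequate basophilic replicate 2, -0.06 and -0.05 without deficient basophilic replicates 1 and 3, 0.14 without adequate basophilic replicate 1 and 0.28 without deficient basophilic replicate 2, while that of all genes stayed between -0.03 and 0.07.

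Leaving out deficient basophilic replicate 2 changed this. Without it 4 genes passed, against 1.44% of all genes: Eif1a (0.59), Eif2s3x (0.68) and Eif5b (1.16) were higher on the deficient diet, and Eif4ebp1 (-0.72) was lower (limma adjusted p = 0.0254, 0.0437, 0.0192 and 0.0297). Eif5b read 9.52, 7.77 and 9.84 on the deficient diet, against 8.64, 8.20 and 8.73 on the adequate diet, so that only this array lay within or below the adequate range. With both replicate 2 arrays left out, the same 4 genes passed, against 2.09% of all genes.

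**Figure D4:**
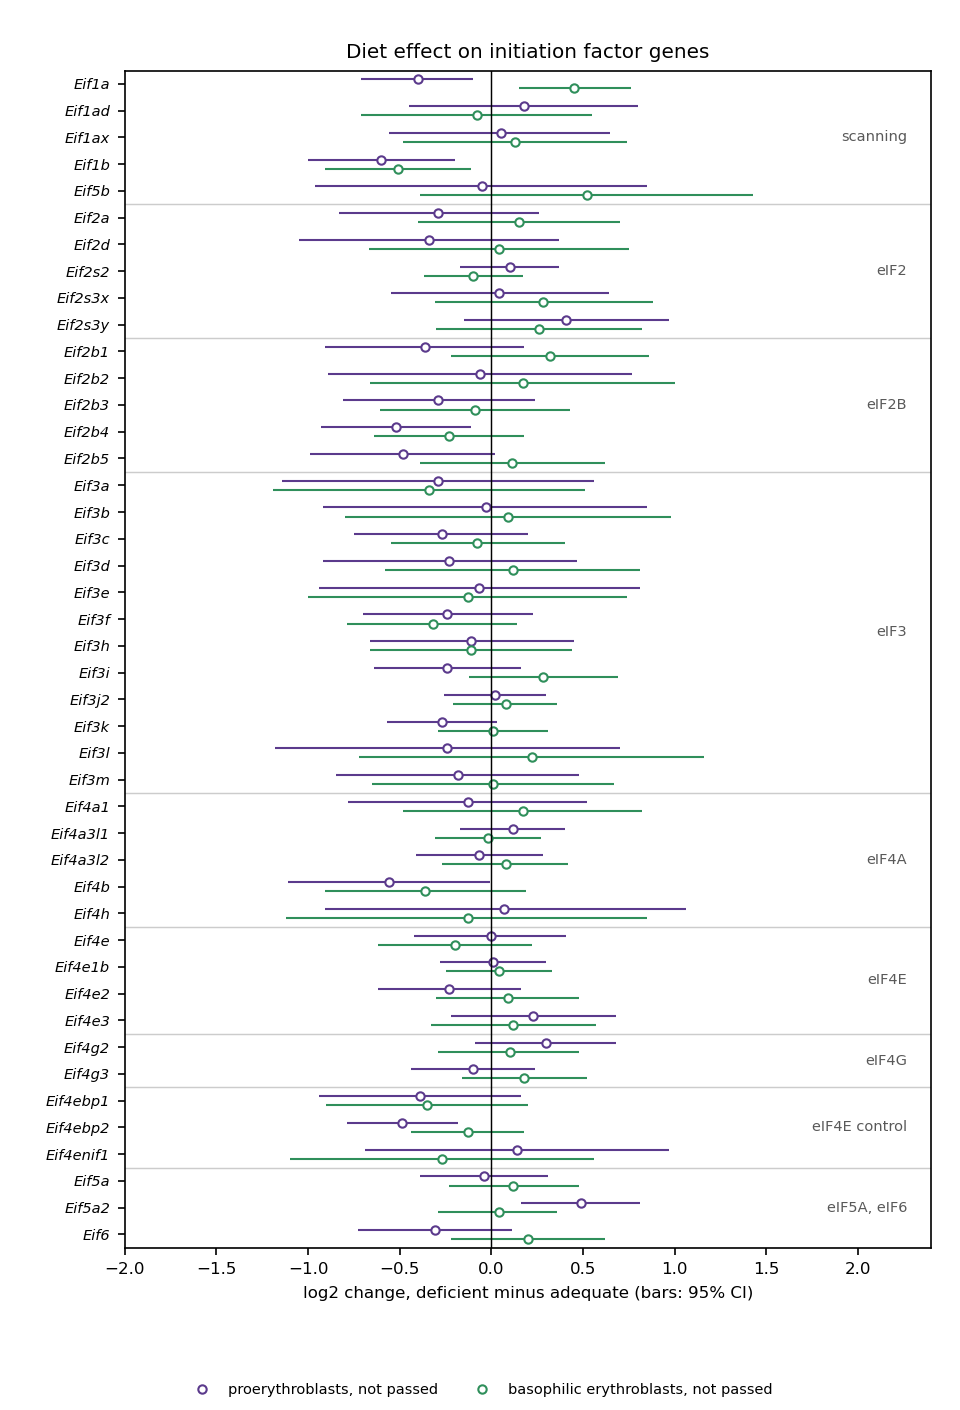
Diet change, deficient minus adequate on the log2 scale, for the 44 initiation factor genes by role, with 95% confidence intervals, in proerythroblasts (purple) and basophilic erythroblasts (green). No gene passed at either stage in this fit, which had no block for replicate number. Below 0 lie 31 of 44 in proerythroblasts and 17 of 44 in basophilic erythroblasts, where leaving out 1 array gives 12 to 31.

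The difference between the stage changes of the 2 diets passed for 0 of 44 genes in limma, against 0.303% of all genes. Only Eif1a had an unadjusted p under 0.05, against 9.15% of all genes: its fall with stage was smaller on the deficient diet by 0.86 (SE 0.20, limma adjusted p = 0.106). With the replicate block within each stage, Eif1a (limma adjusted p = 0.0378) and Eif2b1 (0.68, limma adjusted p = 0.0489) passed, against 2.93% of all genes. Without the 2 basophilic replicate 2 arrays, Eif1a (1.00, limma adjusted p = 0.00999) and Eif5b (1.05, limma adjusted p = 0.0437) passed, against 3.48% of all genes.

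Some markers of other stages and cell types moved with the same comparisons. In adequate mice 4 of 5 early progenitor markers fell with stage, against 25.6% of all genes. Of 10 erythroblast markers 7 rose, against 28.7%. On the deficient diet 3 of 5 progenitor markers fell, against 24.9%, and 4 of 10 erythroblast markers rose, against 31.1%. In deficient proerythroblasts 4 of 5 progenitor markers were lower than in adequate ones, against 2.76% of all genes. There 4 of 10 erythroblast markers were higher, against 1.27%. For diet in proerythroblasts, 1 of 12 neutrophil and 1 of 3 megakaryocyte markers also rose. No macrophage, B cell, T and NK cell or megakaryocyte marker fell with stage on either diet. Those that rose, on each diet, were 2 of 10, 0 of 5, 1 of 7 and 1 of 3. Of 12 neutrophil markers, 7 fell and 1 rose with stage on the adequate diet and 6 fell on the deficient diet. Their mean level per array was 6.61 to 7.88 in adequate and 7.08 to 8.06 in deficient proerythroblasts, and 5.86 to 6.32 and 6.18 to 6.82 in basophilic erythroblasts. The part of these cells in the initiation factor changes was not tested.

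Genes of the neighbouring steps of translation were counted in the same way, against 25.6% of all genes lower and 28.7% higher on the adequate diet and 24.9% lower and 31.1% higher on the deficient diet. Of 13 genes on the elongation and termination list, 9 fell on the adequate diet and 8 on the deficient diet and none rose. Among those that fell was Eefsec, the selenocysteine-specific elongation factor gene (-1.30 and -1.04). Eef1e1 (-2.31 and -1.69) is counted on this list, but despite its symbol it encodes a protein of the tRNA synthetase complex. Of 14 poly(A)-binding, recycling and accessory genes, 8 and 9 fell and 3 and 1 rose. The recycling factor genes Mcts1 (-2.15 and -1.67) and Denr (-0.82 and -0.65) and the scanning helicase gene Dhx29 (-2.12 and -1.33) were lower, and Pabpc1 rose by 0.94 on the adequate diet. Of 9 mitochondrial translation factor genes, 7 fell on each diet, including the elongation factor gene Tufm (-2.35 and -1.31).

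Genes that control eIF2 went both ways, at shares nearer to those of all genes. Of 15 for eIF2 kinases, phosphatase subunits and the stress response, 6 rose and 3 fell on the adequate diet, and 4 rose and 6 fell on the deficient diet. Eif2ak1, the HRI gene, rose by 1.81 and 0.99. Ppp1r15a, the stress-induced eIF2 phosphatase subunit gene, rose by 2.46 and 0.99, and Eif2ak4 fell (-1.45 and -1.09). In proerythroblasts Ppp1r15a and Eif2ak1 were the 2 of 15 that passed for diet, against 4.02% of all genes. On the deficient diet Ppp1r15a rose by 1.48 and Eif2ak1 rose by 0.89 (limma adjusted p = 0.000711 and 0.00349).

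For the mTORC1, MNK and cap control list, 6 of 15 fell and 1 rose on the adequate diet and 7 fell and 1 rose on the deficient diet, with Myc the clearest. Of 8 hypusine and polyamine genes, which serve eIF5A, 3 rose and 3 fell on the adequate diet and 2 rose and 3 fell on the deficient diet, which with so few genes is near the shares of all genes. Srm, spermidine synthase, fell (-2.60 and -1.49), and Azin1, an inhibitor of antizyme, rose by 1.73 and 0.71. In deficient proerythroblasts Azin1 rose by 1.11 and Srm fell by 0.83 (limma adjusted p = 0.000855 and 0.01), the only calls among the 8 hypusine and polyamine genes. Mcts1, 1 of 14 on its list, fell by 0.80 and Tufm, 1 of 9 on its list, fell by 1.35 (limma adjusted p = 0.0254 and 0.0147). The share of all genes that passed there was 4.02%. Of the 13 elongation and termination genes and the 15 of the mTORC1 list, 0 passed. None of these lists had a gene that passed for diet in basophilic erythroblasts, where 0.0199% of all genes passed.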

How the data were processed

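Log2 expression values for 12 arrays were deposited by the authors, who made them with Affymetrix Expression Console per the submitters' processing notes; background correction, summarisation and normalization are not given in the sources used here. Of 72688 features, 186 were controls, 31258 named 1 gene, 1492 several and 39752 none in the platform annotation, and 1789 symbols were updated through RefSeq. The brightest feature stood for each gene with several (441 genes), and genes were tested that exceeded the overall median value, 5.30, in 3 or more arrays. Group means over all 12 arrays were fitted with limma 3.58.1 in R 4.3.3 (lmFit, eBayes, Benjamini-Hochberg), and tables were made in Python 3.11.15. The fit was tested on simulated data for diet in proerythroblasts. It found 72 of 100 genes shifted by 1 log2 unit and 97 of 100 shifted by 2, with 13 false calls. The simulated arrays were independent and equally spread in all groups, unlike the real ones. The simulation therefore does not say how many real diet changes would be found.

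Members and gene lists were chosen with earlier results of these data known. Named with all values were up to 8 members per comparison with the smallest adjusted p and arrays that did not overlap, plus Eif4e, Eif4ebp1, Eif5a and Eif6, and up to 4 genes per other list; Eif5a2, Eif4e1b, Eif4ebp2, Eif1b and Eif5b were given array values after these were seen. Eif2s1 and Eif4a3 have no single-gene feature used here.

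Replicate numbers come from the sample titles. Deviations of same-numbered arrays from their group means correlated across the diets, all above 0.1. The values were 0.46, 0.18 and 0.52 in proerythroblasts and 0.72, 0.78 and 0.54 in basophilic erythroblasts. The numbers were therefore used as a block within each stage in a fit added after the data were seen. Differently numbered basophilic replicates 1 and 3 also correlated (0.60 and 0.51), so there the numbers do not establish pairs. The main fit had no block, so its diet tests took the samples as unpaired.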

Additional observations from a re-analysis of the deposited data

How the results depend on the processing

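The array number, 3 per group, limits the precision, and the basophilic arrays have a higher background. Alternatives were no filter, a stricter filter on dim genes (above 6.62), quantile normalization, median centring, a replicate block, averaging the features of a gene, testing all features singly, trended and robust variance, array weights, only the arrays of a comparison, and leaving out each array. The replicate block within each stage and leaving out both basophilic replicate 2 arrays were added after seeing the data. No gene that passed for stage changed direction under any of them. On the adequate diet 23 of 32 stage calls held in every alternative and on the deficient diet 12 of 30. The share of all genes' stage calls that held was not counted, so these counts cannot be set against it.

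For diet in proerythroblasts, 2 of 44 genes passed with quantile normalization (against 3.96% of all genes), 1 with the replicate block (5.47%), 6 with the replicate block within each stage (11.1%), 19 with array weights (39.8%), 4 with only the arrays of the comparison (12%), 10 without both basophilic replicate 2 arrays (16.3%), and 0 to 4 leaving out each array, most without deficient basophilic replicate 2 (8.97%). For diet in basophilic erythroblasts 4 passed without both replicate 2 arrays (2.09%) and 0 to 4 leaving out each array. For the difference between diets in the stage change, 1 passed with array weights (2.39%), 2 without both replicate 2 arrays (3.48%), 2 with the replicate block within each stage (2.93%), and 0 to 1 leaving out each array. On the deficient diet the stage calls numbered 12 with only the arrays of that comparison (14.5% of all genes); they numbered 21 to 33 leaving out each array, lowest without deficient proerythroblast replicate 1 or 3 (34.0% and 24.6% of all genes), and 26 to 35 on the adequate diet, lowest without adequate basophilic replicate 2 (27.9% of all genes). The cause was not tested. The replicate block gave 35 and 33 stage calls (61.1% and 62.7% of all genes). Across stages the deviations of same-numbered arrays correlated at 0.21, -0.07 and -0.17 on the adequate diet and 0.25, 0.19 and 0.1 on the deficient diet. Such correlations cannot decide whether the samples were paired across stages, and the labels do not say.

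Median centring moved the median stage change of all genes by -0.21 and -0.19. It shifts every gene of an array equally, so the members' difference from that median could not change (-1.08 and -0.94). Other settings could change this difference. It was -0.85 and -0.73 with quantile normalization, and -0.67 and -0.51 with the stricter filter. Without both basophilic replicate 2 arrays it was -0.92 and -0.65. The share of all stage calls that were higher was 52.9% on the adequate diet as deposited, 36.3% with quantile normalization and 26.3% with centring, and 55.5%, 54.5% and 36.6% on the deficient diet. Fallen members were 27 and 25 with quantile normalization (20.7% and 18.6% of all genes fell), 31 and 31 with centring (30.0% on each diet), and 30 and 28 of 42 with the stricter filter (37.6% and 36.5%).

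Changes that had not passed turned sign as follows. With quantile normalization the stage change was 0.18 for Eif2s2 and 0.01 for Eif3c on the adequate diet, and 0.10 for Eif2s2, 0.10 for Eif4ebp1 and 0.22 for Eif4ebp2 on the deficient diet. With median centring it was -0.15 for Eif3j2 on the adequate diet, and -0.13 for Eif3c, -0.08 for Eif3j2, -0.18 for Eif3k, -0.07 for Eif4e3 and -0.11 for Eif5a2 on the deficient diet. With array weights the deficient stage change was -0.26 for Eif3c, -0.01 for Eif3k, -0.11 for Eif4e3, 0.01 for Eif4ebp2 and 0.18 for Eif5b, and the diet change of Eif4e in basophilic erythroblasts was 0.04. Without both replicate 2 arrays these were -0.23 for Eif3c, -0.04 for Eif3k, -0.00 for Eif4e3, 0.21 for Eif5b and 0.12 for Eif4e, and 0.04 for Eif2s2 on the adequate diet. Leaving out each array, the diet change ranged from -0.08 to 0.05 for Eif4e and -0.08 to 0.04 for Eif5a in proerythroblasts, and from -0.35 to 0.03 for Eif4e, -0.02 to 0.26 for Eif5a and -0.02 to 0.36 for Eif6 in basophilic erythroblasts. The stage change ranged from -0.06 to 0.04 for Eif2s2 and -0.01 to 0.14 for Eif3j2 on the adequate diet, and from -0.23 to 0.23 for Eif3c, -0.10 to 0.12 for Eif3k, -0.00 to 0.21 for Eif4e3, -0.02 to 0.21 for Eif5a2 and -0.83 to 0.21 for Eif5b on the deficient diet.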
